A study of Canis lupus familiaris with 17 samples.

Results

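Naive CD8 T cells were defined in this dataset by the transcripts counted in each cell barcode. A barcode was a member when it held at least 1 unique molecular identifier (UMI, 1 counted transcript molecule) of CD3E and of CD8A, none of CD4 and of the B cell gene MS4A1, none of GZMA, GZMB, GZMK and CCL5, and at least 1 UMI among LEF1, CCR7 and ITGA1. Among 84345 barcodes that passed the limits on quality, 1577 were members. They were 1577 of the 8150 CD8 T cells, the barcodes that met the CD3E, CD8A, CD4 and MS4A1 conditions. All 11 genes of this rule were read from the same cells that are described here, so their levels are a description of the choice. Those with enough counts stayed in the fits of genes, but they are not counted as calls and no test of them is given.

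Naive CD8 T cells have left the thymus but have not yet met their antigen. They circulate between blood and lymph nodes, which they enter with the help of the chemokine receptor CCR7, they are kept in a resting state by transcription factors such as LEF1, TCF7 and BACH2, and they are maintained by interleukin 7. After activation they lose much of this program and gain cytotoxic granules, natural killer (NK) cell receptors and chemokines such as CCL5.

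Blood leukocytes of 7 healthy dogs and of 10 dogs with osteosarcoma (OS), a malignant bone tumor, had been isolated by Ficoll density centrifugation and captured with the 10x Genomics 3' v3.1 chemistry, 1 library per dog. All samples were labelled as primary cells of wild-type genotype, the dogs with OS had received no treatment and still carried the primary tumor, and the dogs were owned pets of several breeds. The ages of the 2 groups overlapped, with a higher mean in the dogs with OS, and the part of age in the comparisons was not tested. Every test took the dog as its replicate. Between the groups, p-values judge a difference against the spread between dogs. In fits with the dog as a block, they judge it against the variation left after each dog's own level is removed.

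Matrices held between 1332 and 7748 barcodes and between 7740230 and 56510100 UMIs per dog, and the median kept barcode held between 3674.5 and 6718 UMIs. Libraries shared at most 22 barcodes in any pair of dogs, which was at most 0.375% of the smaller library. The median UMI count per member was 6368 ± 941 (SD, n = 7) among healthy dogs against 6392 ± 1104 among those with OS (SD, n = 10), which did not differ beyond the spread (p = 1 by the exact Wilcoxon rank-sum test, two-sided). Members had a median of 2207 genes and 3.91% mitochondrial UMIs. OS dog 3, with 1239 kept barcodes and 17 members, was below the minimum of 25 members and entered no test of genes.

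Most members held more than 1 of the 3 genes that admitted them. LEF1, a transcription factor of T cell development and quiescence, had a UMI in 94.5% of members, ITGA1, the collagen-binding integrin alpha 1, in 85.7%, and CCR7 in 65.8%. All 3 genes were seen together in 959 members (60.8%), LEF1 with ITGA1 in 313 (19.8%), LEF1 alone in 152 (9.64%), ITGA1 alone in 74 (4.69%) and LEF1 with CCR7 in 66 (4.19%). CCR7 alone admitted 8 members and CCR7 with ITGA1 5. The 3 genes, LEF1 (ENSCAFG00000011252), CCR7 (ENSCAFG00000030300) and ITGA1 (ENSCAFG00000018439), averaged 10.9, 1.70 and 5.01 UMIs per member. Members carried 1.64 UMIs of CD8A (ENSCAFG00000007464) on average, so a CD8 T cell in which CD8A was not sampled was missed by the rule. Of 45717 T cells with CD3E and without MS4A1, 23001 met neither the condition for CD8 T cells nor the corresponding one with CD4.

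The same genes were rare in cells that should lack them. In myeloid barcodes, defined by at least 5 UMIs of LYZ without CD3E or MS4A1, LEF1 had a UMI in 2.21%, CCR7 in 2.07% and ITGA1 in 5.42%. B cells, defined by at least 2 UMIs of MS4A1 without CD3E, held LEF1 in 2.68% and ITGA1 in 6.67%, and CCR7, which naive B cells use as well, in 26.2%. When every barcode with at least 2000 UMIs was thinned to 2000 and the rule applied again, 644 barcodes met it. Of these, 84.2% held LEF1, 68.3% ITGA1 and 33.1% CCR7. Thinning also removes UMIs of the excluded genes, so the 644 can include barcodes that were not members before.

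The rule needs 1 UMI of CD8A, and 1033 members (65.5%) had exactly 1, so that membership of these cells rests on a single molecule of that gene. Exactly 1 UMI of the 3 admitting genes was held by 74 members, 2 by 46 and 3 or more by 1457, with a median of 15. Just outside, 85 CD8 T cells had none of the 3 genes and none of the 4 excluded genes, and 195 had 1 UMI of GZMA, GZMB, GZMK or CCL5 together with at least 1 UMI of the 3, with a median of 4. At 2 or more UMIs of the 4 excluded genes there were 6223 CD8 T cells, whose median was 24 UMIs of those 4 and 0 of the 3.

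The remaining naive genes were compared with the other CD8 T cells of the same dogs. Effector CD8 T cells were CD8 T cells without GZMK and with GZMA, GZMB or CCL5 (2296 barcodes), and the GZMK gate held the 4192 with GZMK. The rule itself takes cells with granzyme or CCL5 transcripts out of the members and requires them in the other gates, so a higher level of naive genes and a lower level of effector genes in members was favoured beforehand. The values are a description that does not bear on the name, given in CPM, the counts of a dog's summed cells scaled to a common total, for the 15 dogs with at least 25 cells in each gate.

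RGS10, a regulator of G protein signaling, was at 334 ± 127 CPM (SD, n = 15) in members and at 32.6 ± 20.6 CPM in effector CD8 T cells. BACH2, a repressor that holds back effector differentiation, was at 817 ± 321 and 139 ± 77.2 CPM, IL7R, the interleukin 7 receptor, at 920 ± 316 and 203 ± 120 CPM, and TCF7, the partner of LEF1, at 190 ± 52.6 and 48.0 ± 23.5 CPM (SD, n = 15). These 4 genes were higher in members in every dog. TXNIP, an inhibitor of glucose uptake, was less distinct, at 137 ± 50.9 CPM in members and 98.8 ± 40.6 CPM in effector CD8 T cells, and was higher in members in 11 of 15 dogs. BTG1, an antiproliferative factor, was lower in members at 137 ± 71.0 against 202 ± 102 CPM, and ETS1 nearly equal at 1466 ± 207 against 1502 ± 202 CPM (SD, n = 15).

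Among listed cytotoxic and effector genes, the NK cell receptor NCR3 was at 27.98 ± 32.5 CPM in members and 619 ± 192 CPM in effector CD8 T cells, KLRB1, a lectin receptor of NK and T cells, at 39.6 ± 45.9 and 669 ± 214 CPM, and the chemokine CCL4 at 22.9 ± 22.1 and 502 ± 182 CPM (SD, n = 15). CTSW, a cathepsin of cytotoxic lymphocytes, was at 167 ± 51.3 CPM in members and 195 ± 67.6 CPM in effector CD8 T cells, and the effector-associated HOPX was at 406 ± 138 and 495 ± 115 CPM. CTLA4, an inhibitory receptor, was at 84.7 ± 32.5 CPM in members and 7.63 ± 5.94 CPM in effector CD8 T cells.

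**Figure D1:**
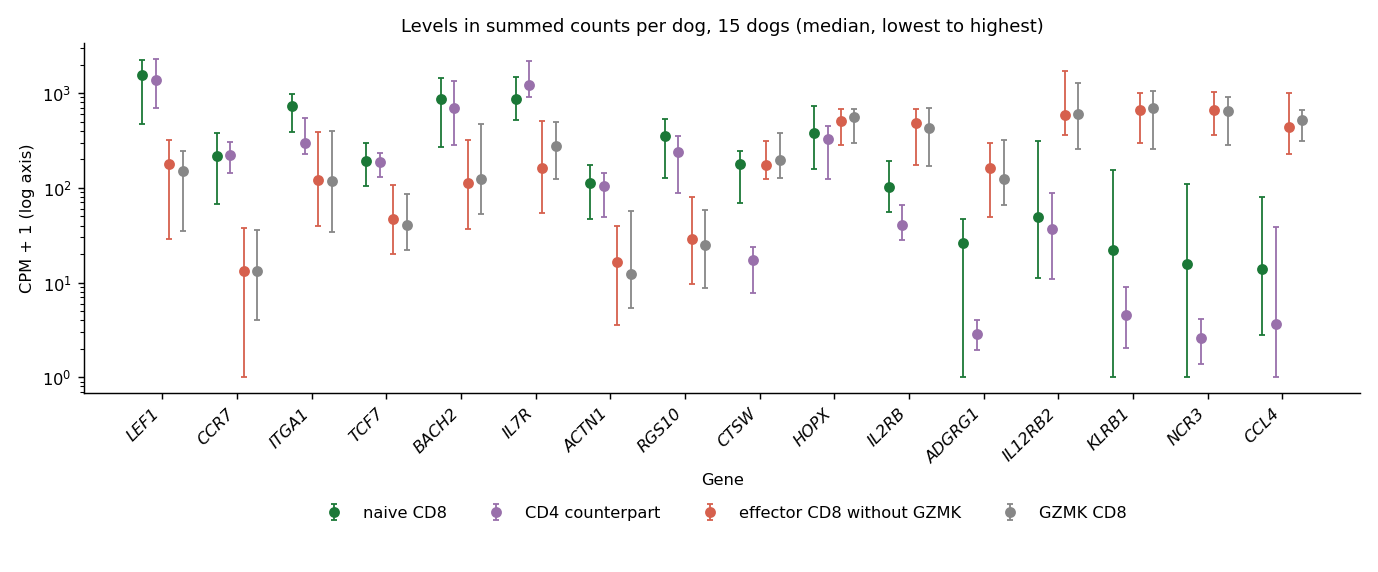
Levels of 16 genes, from LEF1 to CCL4, in naive CD8 T cells, their CD4 counterpart, effector CD8 T cells and the GZMK gate, in CPM + 1 on a log axis. Points are medians over 15 dogs and bars run from the lowest to the highest dog; RGS10 lies at 334 CPM on average in members and 32.6 CPM in effector CD8 T cells, whereas CTSW lies at 167 and 195 CPM.

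Naive CD8 T cells made up a share of CD8 T cells that varied widely between dogs, with no difference between healthy dogs and dogs with OS that exceeded this spread. The share was lowest at 11.6%, 16.2% at the median and highest at 35.5% in healthy dogs (mean 19.9% ± 8.99, SD, n = 7). It was 4.72, 19.9 and 47.2% in dogs with OS (mean 23.0% ± 16.6, SD, n = 10). The second range enclosed the first (p = 1 by the exact Wilcoxon rank-sum test, two-sided, and 1 after adjustment over the 4 shares computed). The smallest p this design allows is 0.000103.

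As a share of all kept barcodes, members were 0.459, 1.53 and 3.66% at the lowest, median and highest healthy dog (mean 1.86% ± 1.299, SD, n = 7) and 0.682, 1.40 and 4.14% in dogs with OS (mean 1.79% ± 1.25, SD, n = 10), with an exact p of 0.962 (adjusted p = 1). Of T cells with CD3E they made up 3.34% ± 2.02 (SD, 7 healthy dogs) and 3.28% ± 2.16 (SD, 10 dogs with OS), with an exact p of 0.887 (adjusted p = 1). Members admitted by ITGA1 alone were 6.82% ± 3.99 of all members in healthy dogs (SD, n = 7) against 8.21% ± 14.2 with OS (SD, n = 10). This share is made of genes of the rule and is given as a description. Its test is not given here, though it counted in the adjustment over all shares. The mean with OS rested on OS dog 4, in which 13 of 28 members (46.4%) were admitted by ITGA1 alone. Without OS dog 4 the mean in dogs with OS was 2.85 percentage points below that of healthy dogs.

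**Figure D2:**
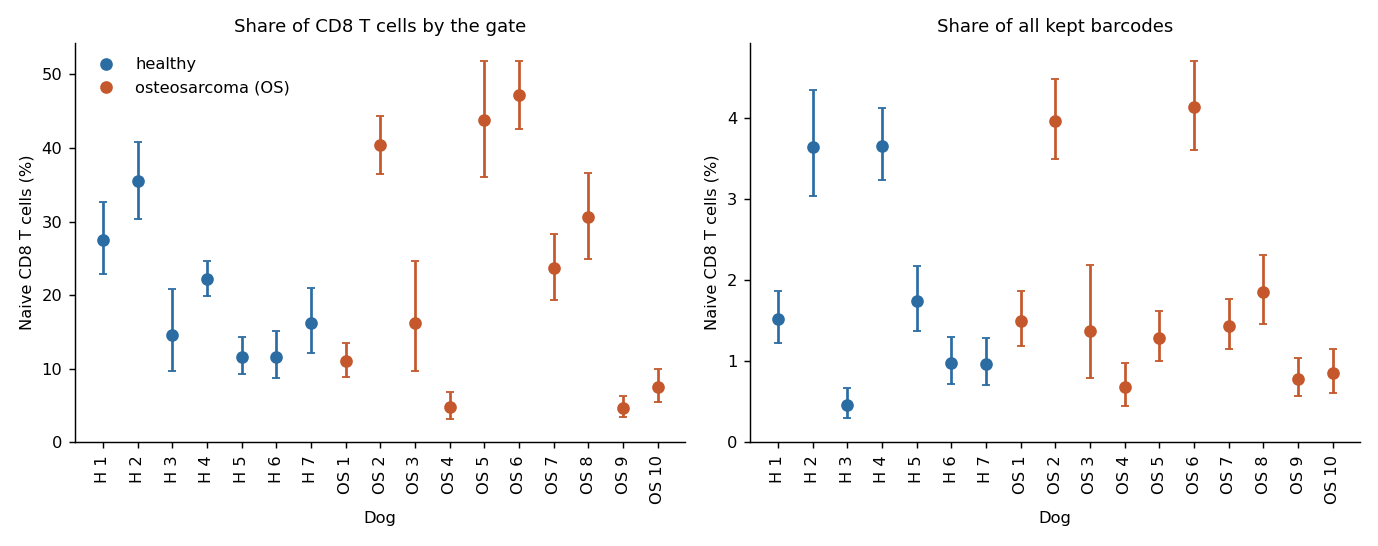
Naive CD8 T cells as percent of CD8 T cells and as percent of kept barcodes in each of the 7 healthy dogs and 10 dogs with OS, with 95% Clopper-Pearson intervals that cover counting error only. The shares of CD8 T cells run from 11.6 to 35.5% in healthy dogs and from 4.72 to 47.2% in dogs with OS.

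What distinguishes naive CD8 T cells from their CD4 counterpart was asked within dogs. The counterpart was chosen by the same rule with CD4 in place of CD8A. It held 11862 barcodes with a median of 6081.5 UMIs, against 6521 in members. The rule kept 11862 of 14566 CD4 T cells but only 1577 of 8150 CD8 T cells. The counterpart can thus hold memory, helper and regulatory CD4 T cells beside naive ones, and their part in the differences was not tested. Summed counts per dog of both populations, in the 16 dogs with at least 25 cells of each, were fitted with edgeR's quasi-likelihood test with the dog as a block, and calls needed a Benjamini-Hochberg adjusted p under 0.01 together with a log2 fold change beyond 0.58 in either direction. Of 13934 genes outside the rule, 762 were called (5.47%), 278 higher in naive CD8 T cells (2%) and 484 lower (3.47%), and the median log2 fold change of all genes was −0.08. In sums of this kind, more positive cells and more RNA per cell cannot be told apart. DESeq2 called 641 genes. When all cells were first thinned to 2000 UMIs and the rule applied again, edgeR called 301, of which 200 were among the 762. That fit held only the dogs that still had 25 members: healthy dogs 1, 2, 4 and 5 and OS dogs 2, 5, 6, 7 and 8. The lower depth and the smaller set of dogs cannot be told apart in it.

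Cells with a UMI of GZMA, GZMB, GZMK or CCL5 had been taken out of both populations. Effector cells in which none of these was sampled could remain, and their part in the differences was not tested. Genes of cytotoxic and effector cells were the most frequent among the called listed genes. Of 28 tested, 13 were higher in naive CD8 T cells, 4 were lower (among them SRGN, BHLHE40 and PRDM1) and 11 did not pass, with a median log2 fold change of 0.85. SRGN, which encodes the granule proteoglycan serglycin, lost its call without OS dog 7 (−0.58).

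CTSW (ENSCAFG00000013168) was at 6.54, 15.8 and 26.5 CPM at the lowest, median and highest dog in the CD4 counterpart and at 65.3, 170 and 426 CPM in naive CD8 T cells. Every dog's value in the CD8 population was above every value in the CD4 population (log2 fold change 3.52, SE 0.09, adjusted p = 4.78e-25). A UMI of CTSW was seen in 56.9% of members and in 7.38% of CD4 counterparts, and in 26.9 and 2.86% of cells thinned to 2000 UMIs.

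CD96, an adhesion receptor of T and NK cells, was at 11.5, 28.5 and 86.2 CPM in the CD4 counterpart and at 32.7, 68.3 and 121 CPM in naive CD8 T cells (log2 fold change 1.27, SE 0.15, adjusted p = 9.24e-08). The ranges overlapped, and the CD8 value was the higher in 16 of 16 dogs. KLRK1, which encodes the activating receptor NKG2D, was at 0.236, 2.63 and 19.6 CPM against 6.93, 48.7 and 169 CPM, and was also higher in 16 of 16 dogs (log2 fold change 3.34).

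The NK cell receptors varied more between dogs. KLRD1 (CD94) was at 0 to 2.56 CPM in the CD4 counterpart and at 0, 17.3 and 97.2 CPM in naive CD8 T cells, NCR3 at 0.376 to 3.06 CPM and at 0, 19.9 and 106 CPM, and KLRB1 at 1.02 to 7.69 CPM and at 0, 21.0 and 147 CPM. Their log2 fold changes were 5.04, 3.80 and 3.23, and they were higher in naive CD8 T cells in 13, 14 and 14 of 16 dogs. KLRB1 was seen in 6.85% of members and NCR3 in 6.15%, against 0.986 and 0.877% of the CD4 counterpart. The ion channel TRPM3 (log2 fold change 3.50) was higher in 13 of 16 dogs and BTBD11 (0.62) in 15.

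PRF1 (perforin), EOMES and TBX21 (transcription factors of cytotoxic cells), CX3CR1 and CCL4 were also called as higher. In the highest dog PRF1 reached 5.83 CPM, EOMES 6.64 CPM, TBX21 16.3 CPM and CCL4 76.2 CPM. The call of TBX21 was lost without healthy dog 2 (log2 fold change 1.17 without it), that of CX3CR1 without healthy dog 2 or 4 (1.60 to 1.78), and that of CCL4 when any of 10 dogs was left out (1.23 to 1.65).

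Of the genes the study lists for naive CD8 T cells, LEF1 and ITGA1 are in the rule, and the other 4 were higher in these cells than in the CD4 counterpart. Since the study chose the list on these samples, this is not independent evidence of its direction. IL2RB, the beta chain shared by the receptors of interleukins 2 and 15, was at 26.3, 37.2 and 62.7 CPM in the CD4 counterpart and at 50.9, 95.03 and 187 CPM in naive CD8 T cells, higher in 16 of 16 dogs (log2 fold change 1.31, SE 0.11, adjusted p = 3.78e-11 by edgeR). ADGRG1, an adhesion G protein-coupled receptor of cytotoxic lymphocytes, had a log2 fold change of 3.30, NBEA, a protein of membrane traffic, 1.38, and PTGDR, a prostaglandin D2 receptor, 0.67. PTGDR was higher in 14 of 16 dogs. Against effector CD8 T cells the order of 3 of the 4 was the opposite: IL2RB was at 108 ± 44.1 CPM in members and 481 ± 169 CPM in effector CD8 T cells, ADGRG1 at 20.8 ± 12.4 and 160 ± 67.8 CPM and PTGDR at 108 ± 32.5 and 285 ± 96.5 CPM (SD, n = 15). NBEA was at 141 ± 48.5 and 130 ± 67.4 CPM.

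Genes of the choice between the CD4 and CD8 lineages differed in both directions, with 4 of 19 tested higher in naive CD8 T cells, 6 lower and 9 not past the thresholds. RUNX3, the transcription factor of the CD8 lineage, was at 10.5, 15.7 and 23.8 CPM in the CD4 counterpart and at 6.64, 34.2 and 59.8 CPM in naive CD8 T cells (log2 fold change 1.18, SE 0.13, adjusted p = 1.91e-08 by edgeR, higher in 15 of 16 dogs). CRTAM, a molecule of activated CD8 T cells, the transcription factor MYB and IKZF2 (Helios) were the other 3, at log2 fold changes of 0.98, 1.98 and 1.33. The study also reported IKZF2 and SOX5 as higher in its CD8+ gamma-delta T cells, with lower GZMA, GZMB and GZMK. Such cells could meet the rule, and their part in the level of IKZF2 was not tested. IKZF2 ranged from 100 to 1431 CPM between dogs in naive CD8 T cells and from 71.9 to 163 CPM in the CD4 counterpart. OS dog 5 held the highest level in naive CD8 T cells of IKZF2 (1431 CPM) and MYB (100.04 CPM), and also of PTHLH, IGF2BP2 and SOX4 (70.9, 186 and 38.2 CPM), 3 genes of the list for gamma-delta T cells, whose part in these differences was not tested. Without OS dog 5 the log2 fold changes of IKZF2 and MYB were 1.18 and 1.70, both still called.

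CD40LG, the ligand with which CD4 T cells help B cells, was at 47.1, 68.5 and 90.2 CPM in the CD4 counterpart and at 0, 12.6 and 81.2 CPM in naive CD8 T cells. It was lower in naive CD8 T cells in 16 of 16 dogs, with overlapping ranges (log2 fold change −2.26, SE 0.20, adjusted p = 2.39e-10 by edgeR). ZBTB7B (ThPOK), the master regulator of the CD4 lineage, was lower at a log2 fold change of −2.07, with at most 7.02 CPM in either population, and TOX2, MAF, ICOS and RORA at −2.06, −1.67, −0.97 and −0.85.

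Of 25 tested genes of the naive program none was higher in naive CD8 T cells, 2 were lower and 23 did not pass, with a median log2 fold change of 0.00. The 2 were MAL, a membrane protein of T cells (−2.13), and the costimulatory receptor CD28, which was at 94.5, 116 and 207 CPM in the CD4 counterpart and at 28.7, 69.9 and 112 CPM in naive CD8 T cells (−0.999, SE 0.10, adjusted p = 1.23e-09 by edgeR, lower in 16 of 16 dogs). None of 18 tested genes of T cell receptor signaling passed, with a median of −0.08. A value that did not pass does not show that the 2 populations were alike.

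Of the admitting genes, for which no test is given, ITGA1 differed most between the 2 populations. It was at 216, 290 and 527 CPM in the CD4 counterpart and at 373, 686 and 954 CPM in naive CD8 T cells, and was higher in naive CD8 T cells in 16 of 16 dogs. A UMI of ITGA1 was seen in 60.1% of CD4 counterparts, whereas LEF1 was seen in 94.5% and CCR7 in 60.2% of them. After thinning to 2000 UMIs, ITGA1 was seen in 68.3% of members and 41.5% of the CD4 counterpart.

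In the list for cytokine reception, which does not hold IL2RB, no gene was higher in naive CD8 T cells. Of 22 tested, 6 were lower and 16 did not pass. IL6R, the interleukin 6 receptor, was at 35.9, 59.2 and 72.2 CPM in the CD4 counterpart and at 3.00, 20.7 and 29.4 CPM in naive CD8 T cells, with no overlap between the populations (log2 fold change −1.61, SE 0.11, adjusted p = 7.01e-13 by edgeR). IL21R (−1.51) and the signaling kinase JAK3 (−0.66) were lower in 16 of 16 dogs, IL18R1 (−1.23) in 15. IL4R and IL18RAP were lower as well, but the call of IL4R was lost without healthy dog 5 (−0.54), and that of IL18RAP when any of 6 dogs was left out (−0.67 to −0.56). IL18RAP turned to 0.16 after thinning.

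Among genes of homing and adhesion, 1 of 22 tested was higher and 4 were lower. ITGAE, the integrin CD103, was higher (0.80). The chemokine receptor CCR6 (−1.51), the oxysterol receptor GPR183 (−0.97) and the selectin ligand SELPLG (−0.68) were lower, as was CCR4, which reached 1.79 CPM and lost its call whenever any of the 16 dogs was left out (−4.22 to −2.59). Of 9 inhibitory receptors and related genes, CD160 was higher (1.55) and PDCD1 (−1.46) and BTLA (−1.25) were lower, all below 21 CPM in every dog. Genes of early activation were called in 5 of 21, all lower (DUSP1, JUNB, NFKBIA, ZFP36 and TNFAIP3), and each of these 5 calls was lost when single dogs were left out, with log2 fold changes of −1.01 to −0.52 then. NFKBIA lost its call only without OS dog 2 (−0.69), and DUSP1 turned to 0.22 after thinning. Interferon-response genes were called in 1 of 24, ISG20 (−1.11).

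The 10 largest differences in each direction included genes outside the lists. Higher in naive CD8 T cells were TMEM178B (log2 fold change 4.27) and the lectin receptor gene KLRA1 (3.34), beside KLRD1, NCR3, CTSW, TRPM3, KLRK1, ADGRG1, KLRB1 and PTHLH. Lower were SGIP1 (−5.05), SYNE2 (−4.18), TSHZ2 (−3.07), the cytokine gene IL1B (−3.05), CADM1 (−2.73), the nucleotide hydrolase SAMHD1 (−2.59), TNFRSF4, which encodes the costimulatory receptor OX40 (−2.58), SERPINA1 (−2.30), SELENOP (−2.26) and the calgranulin gene S100A12 (−2.52). TSHZ2, a zinc finger factor, was at 43.9, 64.0 and 118 CPM in the CD4 counterpart and at 0, 4.07 and 26.6 CPM in naive CD8 T cells, without overlap.

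Markers of other cells were measured beside these genes, and their part in the differences was not tested. Of 11 myeloid genes none was higher in naive CD8 T cells and 3 were lower (S100A12, FCGR1A and VCAN). All 11 had negative log2 fold changes, with a median of −0.80 against −0.08 over all genes, and a summed level of 765 to 3014 CPM in naive CD8 T cells and 718 to 5455 CPM in the CD4 counterpart. The myeloid marker CSF3R was at 0 in naive CD8 T cells of 13 of 16 dogs, but its median was only 1.77 CPM in the CD4 counterpart. Other myeloid genes were at 0 in none of the dogs. In naive CD8 T cells S100A8 was at 646 to 2585 CPM, LYZ at 5.28 to 1427 CPM and VCAN at 5.28 to 254 CPM. A CD4 UMI was seen in 23.8% of myeloid barcodes, so that the gate of the CD4 counterpart could admit cells through myeloid RNA, and its part in the lower levels of S100A12, IL1B and SERPINA1 was not tested. Of the NK cell genes, KLRF1 was at 0 in members of 15 of 16 dogs and NCR1 in 14, and 0 of 3 listed genes passed. FCER1G, the third of them, was at 0 in members of 1 dog only. Its median was 18.1 CPM in members and 19.0 CPM in the CD4 counterpart. None of 7 B cell genes and none of 5 platelet and erythrocyte genes passed. CD79A, a B cell receptor chain, had 3406 to 12472 CPM in naive CD8 T cells and 3310 to 11523 CPM in the CD4 counterpart. PAX5 and EBF1, which define B cells, were at 0 in members of 9 and 10 of 16 dogs. BLK was at 0 in members of 9 dogs, JCHAIN in 6, TNFRSF13C in 3 and BANK1 in 2. In the CD4 counterpart PAX5 was at 0 in 2 dogs and the other B cell genes named here in none. Fewer cells were summed for members, so a value of 0 does not show that a gene was absent. How reads were assigned to CD79A could not be checked from the counts, so its level here cannot be read as that of a B cell gene. Of 8 genes listed for gamma-delta T cells, 4 were higher in naive CD8 T cells: PTHLH (4.68), IGF2BP2 (2.88), SOX5 (2.32) and SOX4 (2.16). SOX5 was at 0, 13.8 and 98.7 CPM in naive CD8 T cells and higher than in the CD4 counterpart in 10 of 16 dogs. Of 6 genes of cycling cells none was higher and TOP2A was lower (−2.42).

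Not every call against the CD4 counterpart held under other processing. Of the 71 genes named for this contrast, DESeq2 lost 8 calls (CCR4, DUSP1, IL18RAP, IL1B, IL4R, JUNB, TNFAIP3 and ZFP36), the fit without the dog block 11 and the removal of doublets 8, among them TBX21, SRGN and S100A12. When ITGA1 and 1 of LEF1 or CCR7 were both required in the 2 populations, 17 lost their call: CCL4, CX3CR1, TBX21, SRGN, CD160, PTGDR, PDCD1, CCR4, IL18RAP, CADM1, S100A12, TOP2A, DUSP1, JUNB, NFKBIA, TNFAIP3 and ZFP36. After thinning to 2000 UMIs, in the smaller set of dogs, 26 lost their call, 2 changed sign and 39 kept theirs. The losses were BTLA, CCR6, CRTAM, FCGR1A, GPR183, IGF2BP2, IL18R1, IL1B, IL4R, ITGAE, JAK3, JUNB, MAL, MYB, NFKBIA, PDCD1, S100A12, SELENOP, SOX4, TNFAIP3, TNFRSF4, TOP2A, TOX2, VCAN, ZBTB7B and ZFP36. PRF1, EOMES, CCR4 and TMEM178B were not tested there.

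**Figure D3:**
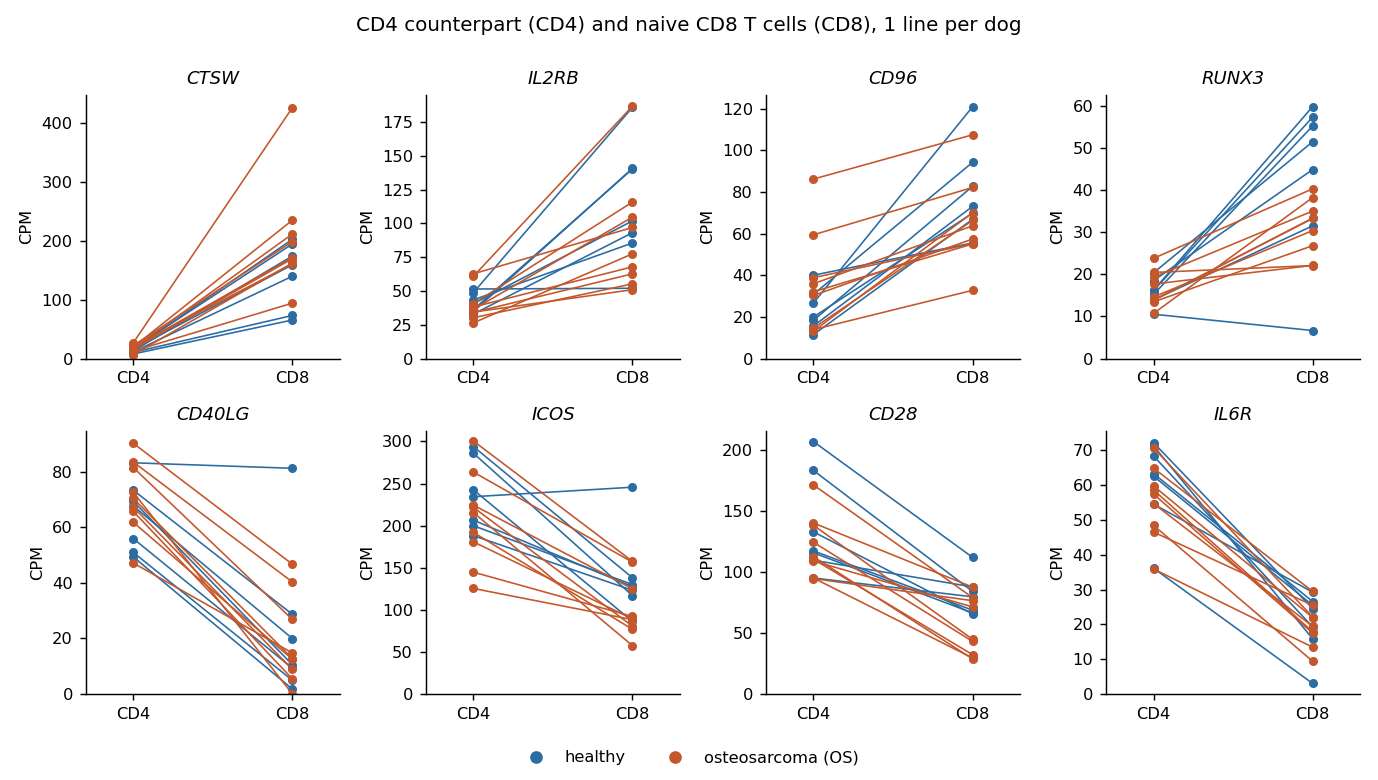
CPM of CTSW, IL2RB, CD96, RUNX3, CD40LG, ICOS, CD28 and IL6R in the CD4 counterpart and in naive CD8 T cells, with 1 line for each of 16 dogs. The first 3 genes rise from the CD4 to the CD8 population in all 16 dogs and RUNX3 in 15; CD40LG, CD28 and IL6R fall in all 16 and ICOS in 15.

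Members differed among themselves by ITGA1. Only 74 members were admitted by ITGA1 alone, too few per dog for a test. Members with LEF1 or CCR7 were therefore split by whether they also held an ITGA1 UMI. This comparison was added after the data had been seen. ITGA1 is itself an admitting gene, so the arm with it met a further naive condition of the rule. Lower naive genes and higher effector genes in the arm without it were favoured beforehand. The p-values of this split are no independent evidence of these directions. In all dogs 226 members had no ITGA1 UMI and 1277 had at least 1. The 10 dogs with at least 10 cells in each arm (5 healthy dogs and 5 with OS) gave 183 and 980 cells, fitted with edgeR's quasi-likelihood test and the dog as a block. Of 10531 genes outside the rule 323 were called (3.07%), 177 higher without ITGA1 (1.68%) and 146 lower (1.39%), with a median log2 fold change of −0.15 over all genes. With 10 to 45 cells in the arm without ITGA1, this comparison depended on the method: DESeq2 called 163 genes, 151 of them among the 323, a fit without the dog block 68, and edgeR after thinning to 2000 UMIs 18. The thinned fit held only healthy dogs 2, 4 and 5 and OS dogs 2, 5 and 6, so depth and the smaller set of dogs cannot be told apart.

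Some genes of the naive program were lower in members without ITGA1. Of 25 tested genes 0 were higher and 7 were lower (among them BACH2, SATB1, RGS10, FOXP1, ACTN1 and FOXO1), and 18 did not pass. The median log2 fold change of the list was −0.39. After thinning to 2000 UMIs per cell the 6 named genes were still lower and none kept its call, and FOXO1 also lost it in DESeq2.

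RGS10 was at 218, 454 and 601 CPM in members with ITGA1 and at 0, 155 and 249 CPM without (log2 fold change −1.68, SE 0.15, adjusted p = 2.86e-23 by edgeR). BACH2 was at 543, 986 and 1647 CPM with ITGA1 and at 164, 396 and 721 CPM without (−1.29, SE 0.11, adjusted p = 9.76e-25). Both were lower without ITGA1 in 10 of 10 dogs, and their ranges overlapped.

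The chromatin organizer SATB1 (−1.15), the actin crosslinker ACTN1 (−1.06) and the quiescence factor FOXP1 (−0.87) were likewise lower in 10 of 10 dogs. The call of FOXO1 (−0.59), a regulator of T cell homing and survival, was lost when any of 6 dogs was left out (−0.56 to −0.49). TGFBR2, a receptor of transforming growth factor beta (−1.23), and TNFSF8, the ligand of CD30 (−1.37), were lower in 10 of 10 dogs as well. The admitting genes are part of the rule and are given as a description without a test. Median levels were 2060 CPM with ITGA1 and 910 CPM without for LEF1 and 282 and 99.9 CPM for CCR7. CD8A was at 257 and 244 CPM.

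Cytotoxic and effector genes were higher without ITGA1 in 12 of 26 tested and lower in none, with a median log2 fold change of 2.06. The interleukin 12 receptor chain IL12RB2 was at 0, 8.75 and 174 CPM with ITGA1 and at 0, 127 and 838 CPM without (log2 fold change 2.90, SE 0.22, adjusted p = 2.91e-31 by edgeR), higher without ITGA1 in 8 of 10 dogs. KLRB1 was at 0, 4.85 and 42.6 CPM with ITGA1 and at 0, 117 and 433 CPM without (3.02, higher in 7 of 10 dogs). The ranges overlapped for both. Per cell, a UMI of KLRB1 was seen in 24.3% of members without ITGA1 and 2.82% with it, and of IL12RB2 in 27.4 and 3.99%, at median depths of 6176 and 6600 UMIs. After thinning these shares were 15.7 and 3.30% for KLRB1 and 17.2 and 3.30% for IL12RB2. CTSW was seen in 53.5 and 58.7% and was not called.

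NCR3 (3.61), CCL4 (3.27), KLRD1 (3.00) and CD96 (1.52) were also higher without ITGA1, in 7 or 8 of 10 dogs. KLRK1 (2.06), the Fc receptor chain FCER1G (2.50) and the transcription factor ZEB2 (2.06) were higher in 7 of 10 dogs each. FCER1G is also in the NK cell list, of which 1 gene was tested in this split. CX3CR1 (3.36) was called with higher values in 6 of 10 dogs, and TRPM3 (2.65) and FASLG with higher values in 5 of 10. TRPM3, ZEB2, KLRK1 and FASLG passed in edgeR and not in DESeq2. After thinning to 2000 UMIs per cell, IL12RB2, KLRB1, KLRD1 and ZEB2 kept their calls in the cytotoxic list, CX3CR1 was not tested, and the others named here lost theirs. FASLG lost its call when any of 5 dogs was left out (1.49 to 2.26). IKZF2 was at 31.2, 211 and 1337 CPM with ITGA1 and at 195, 540 and 3253 CPM without (1.78, SE 0.13, adjusted p = 1.51e-33 by edgeR), and was higher without ITGA1 in 10 of 10 dogs although the ranges overlapped. The part of CD8+ gamma-delta T cells in this difference was not tested.

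Of 17 lineage genes 8 were higher without ITGA1 and 1 (TNFSF8) was lower. The 8 were IKZF2, MAF (1.75), RUNX3 (1.09), GATA3 (0.82), RORA (0.72), KLF3 (0.71), ICOS (0.68) and CD40LG (1.61), which include genes of both the CD8 and the CD4 side. RUNX3 lost its call without healthy dog 4 (0.93), GATA3 without any of 3 dogs (0.62 to 0.81), ICOS without any of 5 (0.58 to 0.67) and CD40LG without any of 7 (1.51 to 1.68). MAF turned to −0.90 after thinning. Of 19 genes of cytokine reception 2 were higher and TGFBR2 was lower, and of 18 genes of homing and adhesion 3 were higher. IL18R1 (2.33), IL18RAP (1.61, lost without any of 3 dogs, 1.39 to 1.51), the integrin chain ITGB1 (1.07), GPR183 (1.15, lost without healthy dog 2, 0.86), ITGAL (0.72, lost without any of 6 dogs, 0.56 to 0.72), CD160 (2.42) and ISG20 (1.41) were higher.

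Of the T cell receptor signaling genes 2 of 18 were higher, among them SH2D1A (0.83, lost without healthy dog 2, 0.73). Of 7 genes listed for gamma-delta T cells 3 were higher: GATA3, ZBTB16 (1.45, lost without healthy dog 4, 1.14) and IGF2BP2 (1.16, lost without OS dog 2 or 7, 0.53 to 0.95, and −0.29 after thinning). In the early activation list, FKBP5 alone of 21 genes was called, as lower (−0.61, lost without any of 4 dogs, −0.56 to −0.50). IL2RB was higher without ITGA1 (0.93, lost without healthy dog 4, 0.65), and ADGRG1, PTGDR and NBEA did not pass, with log2 fold changes of 0.91, 0.45 and −0.10.

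NCAM1, MTUS2 and FRY had no UMI in the 183 cells without ITGA1, where 3 counts over the 10 dogs would be 2.52 CPM. With ITGA1 they had 154, 69 and 78 UMIs, so MTUS2 and FRY were at least 4.04-fold and 4.57-fold lower without it in these 10 dogs. NCAM1 was at 25.3 to 75.9 CPM with ITGA1 in the 5 healthy dogs and at 0 to 0.948 CPM in the 5 dogs with OS, so its difference rests on the healthy dogs. The 7 dogs outside the fit, with 43 cells without ITGA1 and 297 with it, did not show this for all 3 genes. There FRY had 6.98 UMIs per 100 cells without ITGA1 (3 UMIs) and 8.42 with it, and NCAM1 had 37.2 (16 UMIs, 15 of them in OS dog 8) and 39.7. MTUS2 had 4.65 per 100 cells (2 UMIs) and 10.4. The call of MTUS2 was lost without healthy dog 2, where its fitted log2 fold change was −4.75. The other genes with the largest differences were rarely detected. STYK1 (3.23), ELOVL6 (4.47), ESRRG (3.85), ANO4 (3.99), GPR39 (3.78) and PAK3 were higher without ITGA1. The calls of ANO4 (3.08 without OS dog 6), GPR39 (2.81 without healthy dog 2) and PAK3 (1.84 without OS dog 2) were lost without those dogs. ESRRG without ITGA1 was at 182 CPM in OS dog 6, 16.4 CPM in healthy dog 7 and 0 in the other dogs. Its difference thus rests mostly on OS dog 6. NKAIN2 (−3.87), DSCAM (−4.06), CDC42BPB (−3.57), EDAR (−3.57) and PLSCR4 (−3.44) were lower, the last 3 losing their calls without healthy dog 4 (CDC42BPB, −2.90), any of 3 dogs (EDAR, −3.36 to −3.29) and any of 4 dogs (PLSCR4, −3.33 to −3.00). Of 10 myeloid genes S100A12 (−3.77, lost without healthy dog 2, −1.92) and LYZ (−1.64, and 0.51 after thinning) were lower without ITGA1, and none was higher. The neutrophil granule gene CAMP was also called as lower (−5.10), but lost its call without healthy dog 2 (−3.61) and had 0.32 in DESeq2. The part of myeloid RNA in these differences was not tested. Among the genes named for members with and without ITGA1, 26 lost their call in DESeq2 and 2 changed sign, and after thinning 38 lost it and 3 changed sign. The losses in DESeq2 include IL2RB, IL18RAP, GATA3, ICOS, ITGAL, IGF2BP2, FKBP5, NCAM1, MTUS2, FRY, ELOVL6, ESRRG, ANO4, GPR39, PAK3, DSCAM, CDC42BPB, EDAR, PLSCR4, S100A12 and LYZ.

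**Figure D4:**
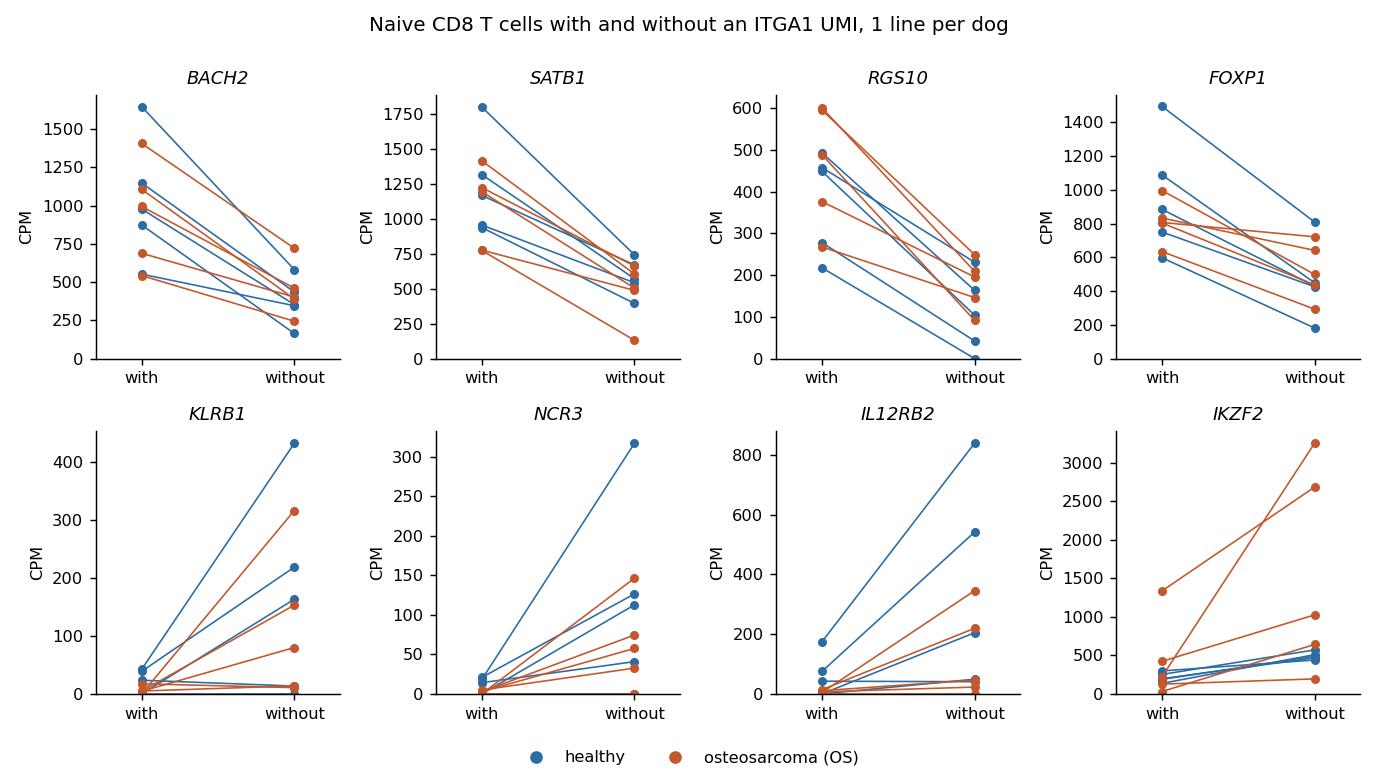
CPM of BACH2, SATB1, RGS10, FOXP1, KLRB1, NCR3, IL12RB2 and IKZF2 in members with and without an ITGA1 UMI, with 1 line for each of 10 dogs. The first 4 genes are lower without ITGA1 in 10 of 10 dogs, IKZF2 is higher in 10, NCR3 and IL12RB2 in 8 and KLRB1 in 7.

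Gene levels of naive CD8 T cells were then compared between 9 dogs with OS and 7 healthy dogs. No gene was called by edgeR's quasi-likelihood test among 10968 tested (0%), and DESeq2 also called 0, while 558 genes had p below 0.05 before adjustment. The lowest adjusted p was 0.0331, and the median log2 fold change of all genes was 0.01. No gene of the 16 lists passed. The median log2 fold change was 0.00 over 25 genes of the naive program, −0.06 over 22 interferon-response genes, −0.08 over 18 genes of T cell receptor signaling and 0.24 over 21 genes of early activation. Over 27 cytotoxic and effector genes it was −0.999, with 24 of 27 below 0. Over 10 myeloid genes it was 0.96. The summed levels of these 2 lists were closer between the groups. For the cytotoxic list the sum averaged 1789 CPM (1425 to 2245) in healthy dogs and 1420 CPM (1038 to 1986) with OS. For the myeloid list it averaged 1684 CPM (781 to 2971) in healthy dogs and 1760 CPM (826 to 2982) with OS. A list median thus does not give the size of a change in its summed level. These list medians and sums were not tested.

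The genes with the smallest p in each direction are given as values that did not pass. TRPM3 (ENSCAFG00000001849), a cation channel, was at 0, 65.4 and 237 CPM in healthy dogs and at 0, 8.48 and 19.7 CPM in dogs with OS (log2 fold change −3.13, SE 0.53, adjusted p = 0.0331 by edgeR). The ranges overlapped only through healthy dogs 5 and 7, at 17.96 and 0 CPM. TRPM3 was called without healthy dog 5 or 7 and without the filter on genes.

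STYK1, a kinase-like protein also known as NOK, was at 0, 12.6 and 29.5 CPM in healthy dogs and at 0, 1.41 and 5.77 CPM in dogs with OS (log2 fold change −2.65, adjusted p = 0.53 by edgeR). KLRB1 was at 0, 51.3 and 148 CPM and at 1.41, 7.45 and 71.3 CPM (−2.19, adjusted p = 0.53). PRUNE2 (−2.08) and SNTB1 (−1.07) had the same adjusted p. In these 4 genes the groups overlapped.

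With positive log2 fold changes, TIMP1, an inhibitor of metalloproteinases, was at 9.83, 38.5 and 45.8 CPM in healthy dogs and at 33.9, 62.2 and 155 CPM in dogs with OS (1.38, adjusted p = 0.53 by edgeR). ITPA, which hydrolyses inosine triphosphate, was at 9.83, 38.1 and 50.6 CPM and at 55.1, 59.4 and 79.5 CPM (0.87, adjusted p = 0.562). ITPA was the only one of these 10 genes whose groups did not overlap, and all 10 were picked for small p from 10968 genes. How many of the 10968 had groups without overlap is not given here, so this is no result about ITPA. LYAR (0.78), DPP7 (1.05) and CCL14 (2.77) had adjusted p of 0.562, 0.691 and 0.666.

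PTGDR, IL2RB, ADGRG1 and NBEA did not pass either, with log2 fold changes of −0.10, −0.33, −0.09 and −0.19. LEF1, CCR7, ITGA1 and CD8A, which define the population, were at medians of 1468, 205, 706 and 246 CPM in healthy dogs and 1629, 216, 683 and 245 CPM in dogs with OS.

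Whether the contrast with the CD4 counterpart differed between the groups was tested with an interaction term, added after the data had been seen. Of 13940 genes, some of them genes of the rule, 1 was called by edgeR, PLCB1 (ENSCAFG00000005856), a phospholipase C of G protein signaling. An unadjusted p below 0.05 was seen for 624. In healthy dogs PLCB1 was at 9.74, 88.3 and 285 CPM in naive CD8 T cells and at 21.5, 46.0 and 70.5 CPM in the CD4 counterpart, and was higher in naive CD8 T cells in 6 of 7 dogs. In dogs with OS it was at 5.51, 32.7 and 94.0 CPM and at 22.5, 56.6 and 146 CPM, and was lower in naive CD8 T cells in 8 of 9 dogs. The 2 contrasts differed by −1.92 on the log2 scale (SE 0.31, adjusted p = 0.00504 by edgeR). The call was lost without healthy dog 2, 3 or 6 or OS dog 1, 2, 5 or 6 (−1.92 to −1.71), and after thinning, which left fewer dogs in the fit (−1.53).

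**Figure D5:**
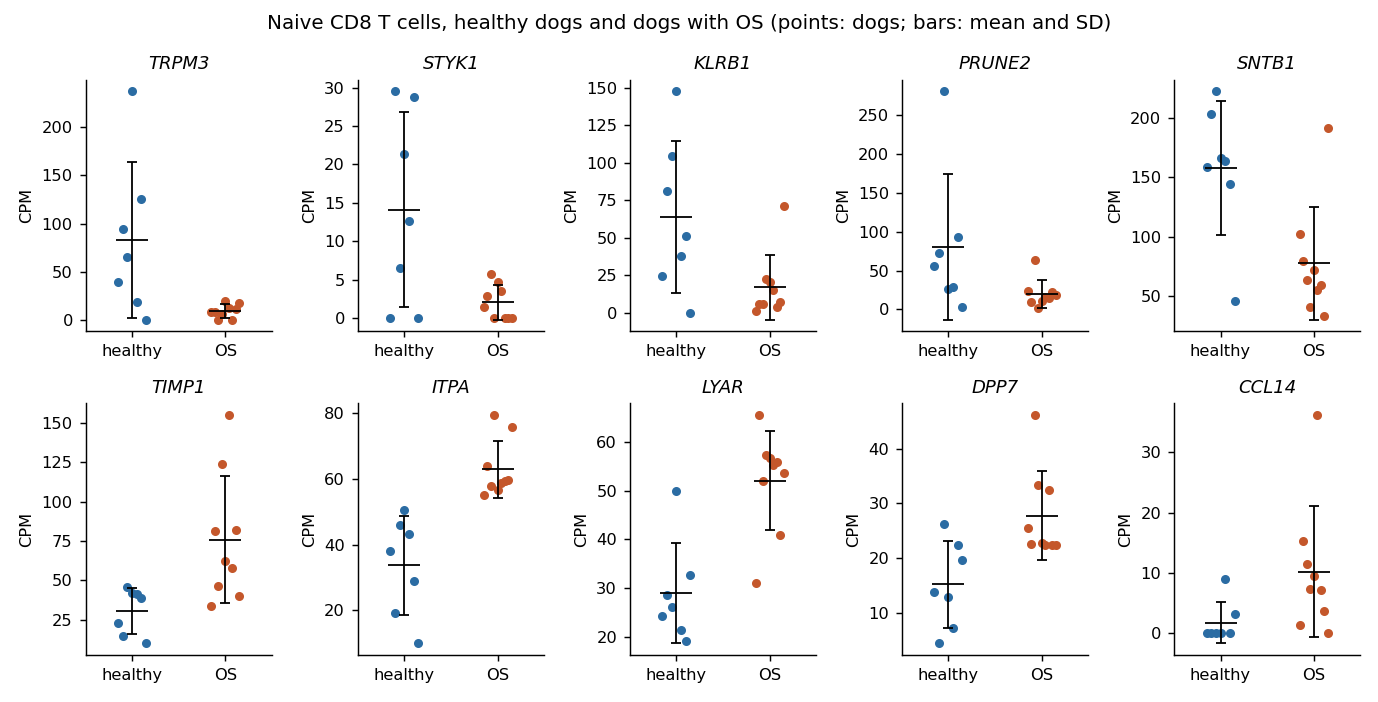
CPM of TRPM3, STYK1, KLRB1, PRUNE2, SNTB1, TIMP1, ITPA, LYAR, DPP7 and CCL14 in naive CD8 T cells of 7 healthy dogs and 9 dogs with OS. Points are dogs and bars show the mean ± SD. None of the 10 genes passed the thresholds, and ITPA was at 9.83 to 50.6 CPM in healthy dogs and 55.1 to 79.5 CPM in dogs with OS.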

How the data were processed

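The deposited values were UMI counts per gene and barcode, 1 matrix per dog, made by the authors with Cell Ranger 7.0.0 on CanFam3.1 with Ensembl genes. The authors aligned with and without intronic reads, and which the counts hold is not given in the sources used here. Barcodes were kept with 200 to 4500 genes, 500 to 20000 UMIs and less than 10% mitochondrial UMIs. Doublets were kept: removing the highest Scrublet scores, at a rate that grows with the barcodes per dog, would take 90 members (5.71%).

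Counts were summed per dog and population (at least 25 cells, or 10 for the split by ITGA1, and 10 counts per gene) and TMM-normalized and fitted with the quasi-likelihood test of edgeR. CPM are TMM-scaled within each fit, so a gene's values differ slightly between comparisons. SE were the log2 fold change over the root of F. The 25-cell sums held 141202 to 8246647 UMIs and those of the split 35835 to 1792660. Shares were tested with exact two-sided Wilcoxon rank-sum tests. Alternatives were DESeq2, its size factors, other filters on genes and cells, doublets removed, other forms of the rule, thinning, blocks, and each dog left out. After thinning the rule was applied again, so the thinned populations need not hold the same cells. Fewer dogs then reached the minimum number of cells, and only these entered the thinned fits. The fits were tested on simulated data.

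The members and gene lists were chosen with earlier results of these data known. Genes named were those of the rule, list members past both thresholds, the study's 4 genes outside the rule, and the 10 largest changes per direction at a mean of 10 CPM or more, or the 5 smallest p per direction where fewer than 5 passed. Listed symbols without an entry under that name in the features, such as KLF2, were not analysed here, and some genes of the lists are counted but not reported here by name.

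The analyses were run in R 4.3.3 (DESeq2 1.42.0; edgeR 4.0.16; limma 3.58.1) and in Python 3.11.15 (scipy 1.17.1; scanpy 1.11.5; numpy 2.4.6; pandas 2.3.3; matplotlib 3.10.9).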

Additional observations from a re-analysis of the deposited data

Results flagged for a closer look

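Single dogs stood apart from the rest of their group in 12 of 42 groups of values examined with Dixon's criterion. Its level of about 1 in 20 holds for independent, normally distributed values. The groups include CPM bounded at 0, genes picked for small p and shares of rule genes. The number expected by chance is thus not known, and 12 of 42 cannot be judged against it. OS dog 4, with 28 members, accounted for several of the 12. In OS dog 4, 46.4% of members were admitted by ITGA1 alone, against 0 to 16.7% in the other dogs with OS, and 53.6% of its members held LEF1, against 81.0 to 100%. Its naive CD8 T cells also had the highest level among dogs with OS of IL2RB (185 CPM, others 51.8 to 119), PRUNE2 (63.5 CPM, others 1.85 to 24.0) and DPP7 (46.2 CPM, others 22.3 to 33.3). In OS dog 3, 52.9% of its 17 members held ITGA1, against 76.2 to 92.1% in the other dogs with OS.

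OS dog 10 was apart from the other dogs with OS in KLRB1 (71.3 CPM, others 1.41 to 22.2) and in SNTB1 (192 CPM, others 33.5 to 102). CCL14 was at 36.2 CPM in OS dog 7 (others 0 to 15.2) and at 8.98 CPM in healthy dog 5 (others 0 to 3.28). Among healthy dogs, PRUNE2 was at 281 CPM in dog 3 (others 3.28 to 93.0) and PTGDR at 179.7 CPM in dog 4 (others 73.0 to 111).

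The contrast of naive CD8 T cells with the CD4 counterpart differed between dogs with OS and healthy dogs for PLCB1, by −1.92 on the log2 scale (edgeR interaction term). PLCB1 was the 1 gene called of 13940, in a term added after the data had been seen. Its call was lost when any of 7 dogs was left out, and after thinning.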

How the results depend on the processing

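The number of naive CD8 T cells per dog (17 to 259) and the UMIs in their sums limit the precision of these results. The 3 differences in share given with a test (dogs with OS minus healthy dogs, percentage points) kept their side of 0.05 throughout. The share of CD8 T cells (3.08) ran from 0.393 (without OS dog 6) to 5.68 (without healthy dog 2) with each dog left out, and was 6.81 with the replicate block and 6.20 without OS dogs 3 and 4. The share of kept barcodes turned to 0.201 with a replicate block and 0.123 without OS dogs 3 and 4, and ran from −0.328 to 0.234 with each dog left out. The share of CD3E T cells turned to 0.374 with the replicate block and ran from −0.592 to 0.507 with each dog left out. The share admitted by ITGA1 alone ran from −2.85 to 2.43 with each dog left out, the lowest without OS dog 4. Replicate numbers did not pair the dogs (correlations from −0.362 to 0.170 over 6 numbers), and the replicate block left 0 genes called between the groups.

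Between the groups, 1 gene (TRPM3) was called with no filter on genes, and 0 to 1 with each dog left out. Values near 0 changed sign: ADGRG1 was 0.0145 with LEF1 or CCR7 required and −0.285 to 0.0951 with each dog left out, IL2RB 0.000429 with the replicate block, and with each dog left out NBEA ran from −0.277 to 0.00186 (highest without healthy dog 2) and PTGDR from −0.201 to 0.107 (highest without healthy dog 4). Against the CD4 counterpart, thinning to 2000 UMIs, which left fewer dogs in the fit, gave 301 calls, and DUSP1 (0.22) and IL18RAP (0.16) changed sign. The other alternatives gave 533 to 769 calls, and 649 to 798 with each dog left out. In the split by ITGA1, 323 calls became 163 with DESeq2, 68 without the dog block and 18 after thinning (in fewer dogs), and 231 to 331 with each dog left out. CAMP turned to 0.32 and NBEA to 0.0088 with DESeq2, NBEA ran from −0.192 to 0.00858 with each dog left out (highest without healthy dog 4), and IGF2BP2 turned to −0.29, LYZ to 0.51 and MAF to −0.90 after thinning. The interaction term gave 7 calls after thinning (in fewer dogs), without PLCB1, and 0 to 13 with each dog left out. The causes of these changes were not tested. The planned test of members with ITGA1 alone could not be fitted, since no dog had 25 of them.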
